A study of Mus musculus with 12 samples.

Results

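Described here are 10 genes of 2 linked systems of gene silencing, Polycomb repressive complex 2 (PRC2) and the RE1-silencing transcription factor (REST), in cultured hippocampal neurons. The genes were taken from the table of gene counts by a list of names, which sets no threshold on their values. They were Ezh2, Ezh1, Eed and Suz12 (the PRC2 core), Jarid2, Mtf2 and Phf19 (PRC2 accessory subunits), and Rest, Rcor1 and Rcor2 (REST and its CoREST corepressors). All 10 were among the 19336 loci with a gene name and all 10 passed the filter on low counts, which left 15656 genes for testing. The cultures came from the hippocampus of wild-type (WT) mouse pups at postnatal day 4 and were kept for 8 days before treatment. RNA was sequenced from 4 treatment groups of 3 libraries each. DAPT + sErbB4 cultures had 20 µM DAPT, an inhibitor of γ-secretase, and then 20 nM of the soluble ectodomain of ErbB4 (sErbB4) for 4 h. DAPT cultures had 20 µM DAPT with no sErbB4, sErbB4 cultures had 20 nM sErbB4 with no DAPT, and vehicle cultures had neither. DAPT was started the day before, and the sources differ on its exact length. The 3 libraries of a condition were separate platings, and pups of 3 litters were used. The design asks which expression changes after sErbB4, which binds neuregulin 1 (Nrg1) on neurons, need γ-secretase, the protease that frees the intracellular domain of Nrg1 to enter the nucleus. γ-Secretase has many other substrates, Notch receptors among them, so DAPT is not a tool for Nrg1 alone.

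PRC2 places methyl groups on lysine 27 of histone H3 and so keeps developmental genes silent. EZH2 and EZH1 are alternative catalytic subunits, and EED and SUZ12 are the scaffold on which either one works. EZH2 is typical of dividing progenitors and EZH1 of cells that have left the cell cycle. In neural progenitors PRC2 holds back differentiation genes, and in neurons it keeps non-neuronal programs off. REST binds a DNA element in the control regions of many neuronal genes and recruits histone deacetylases and the demethylase KDM1A through CoREST proteins, which Rcor1 and Rcor2 encode. REST declines as progenitors become neurons.

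RefSeq start-site windows (GRCm38.p6, 250 bases before to 50 after the start) were found for 9 of the 10 genes and were searched on both strands for 2 kinds of element. The first was an E2F element, written TTTCCCGC, TTTCGCGC, TTTGCCGC or TTTGGCGC and typical of genes of the dividing cell. The other was the element of RBPJ, the DNA-binding partner of the Notch intracellular domain, written GTGGGAA. The 3 windows below are those of the genes that moved most with DAPT. They are written 5′ to 3′ on the gene's own strand, with E2F elements in capitals. They lie at chr6:47594981-47595280 (minus strand, Ezh2), chr11:101226414-101226713 (minus strand, Ezh1) and chr19:7267144-7267443 (plus strand, Rcor2).
Ezh2: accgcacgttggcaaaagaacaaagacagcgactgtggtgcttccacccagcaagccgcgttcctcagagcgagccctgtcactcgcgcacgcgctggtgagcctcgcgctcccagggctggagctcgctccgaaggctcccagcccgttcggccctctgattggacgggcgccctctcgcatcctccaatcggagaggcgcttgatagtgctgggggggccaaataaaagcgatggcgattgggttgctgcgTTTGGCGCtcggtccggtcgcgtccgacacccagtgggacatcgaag
Ezh1: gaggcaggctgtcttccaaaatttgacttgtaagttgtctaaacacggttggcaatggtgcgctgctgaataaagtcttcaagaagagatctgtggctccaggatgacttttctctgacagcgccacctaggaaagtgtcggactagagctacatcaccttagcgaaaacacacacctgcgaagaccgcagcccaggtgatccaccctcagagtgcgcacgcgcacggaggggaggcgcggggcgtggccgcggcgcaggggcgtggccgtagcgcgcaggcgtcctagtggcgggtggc
Rcor2: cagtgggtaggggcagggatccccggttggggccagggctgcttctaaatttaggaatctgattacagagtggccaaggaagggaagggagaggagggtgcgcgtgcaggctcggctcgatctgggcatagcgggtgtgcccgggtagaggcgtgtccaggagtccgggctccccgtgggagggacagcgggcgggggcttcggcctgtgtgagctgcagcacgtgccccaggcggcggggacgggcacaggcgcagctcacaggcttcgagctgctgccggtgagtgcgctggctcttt
The Ezh2 window held 1 E2F element, TTTGGCGC on the plus strand of the gene, from base 254 of the window. The windows of Ezh1 and Rcor2 held none. Suz12 had TTTCCCGC from base 32 of its window and Phf19 had the same letters on the opposite strand from base 43. An E2F element was thus present in 3 of the 9 genes, and in 704 of all 27025 genes with a window (2.6%). The RBPJ element was present in 0 of the 9 genes and in 7.25% of all genes. A match describes letters in a window, not a bound site.

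The libraries held 36.5 to 54.4 estimated counts in units of 1000000, of which 18.7 to 30.8 were on named loci, and each of the 10 genes had between 52.3 and 491 counts in a library. Values below are counts per 1000000 (CPM) of named counts, scaled between libraries by the trimmed mean of M values (TMM). One ribosomal RNA locus, Rn45s, took 31.4 to 44.6% of the named counts. On the first 2 principal components (21.4 and 12.8% of the variance), sErbB4 replicate 1 and vehicle replicate 3 stood apart from the other libraries of their groups. Neuronal markers were present in every group, with a summed level over 8 markers of 1122 to 1191 CPM in DAPT + sErbB4, 1032 to 1105 in DAPT, 1021 to 1075 in sErbB4 and 937 to 995 CPM in vehicle libraries. So were markers of astrocytes, of radial glia and neural stem cells, and of oligodendrocyte precursors. Over the 12 libraries the 5 astrocyte markers summed to 4909 to 6482 CPM. The 9 of radial glia and neural stem cells summed to 2764 to 5537 CPM. These sums do not measure shares of cells, but the levels below are not those of neurons alone. In such bulk RNA, fewer cells of a type and less RNA per cell cannot be told apart.

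**Figure D1:**
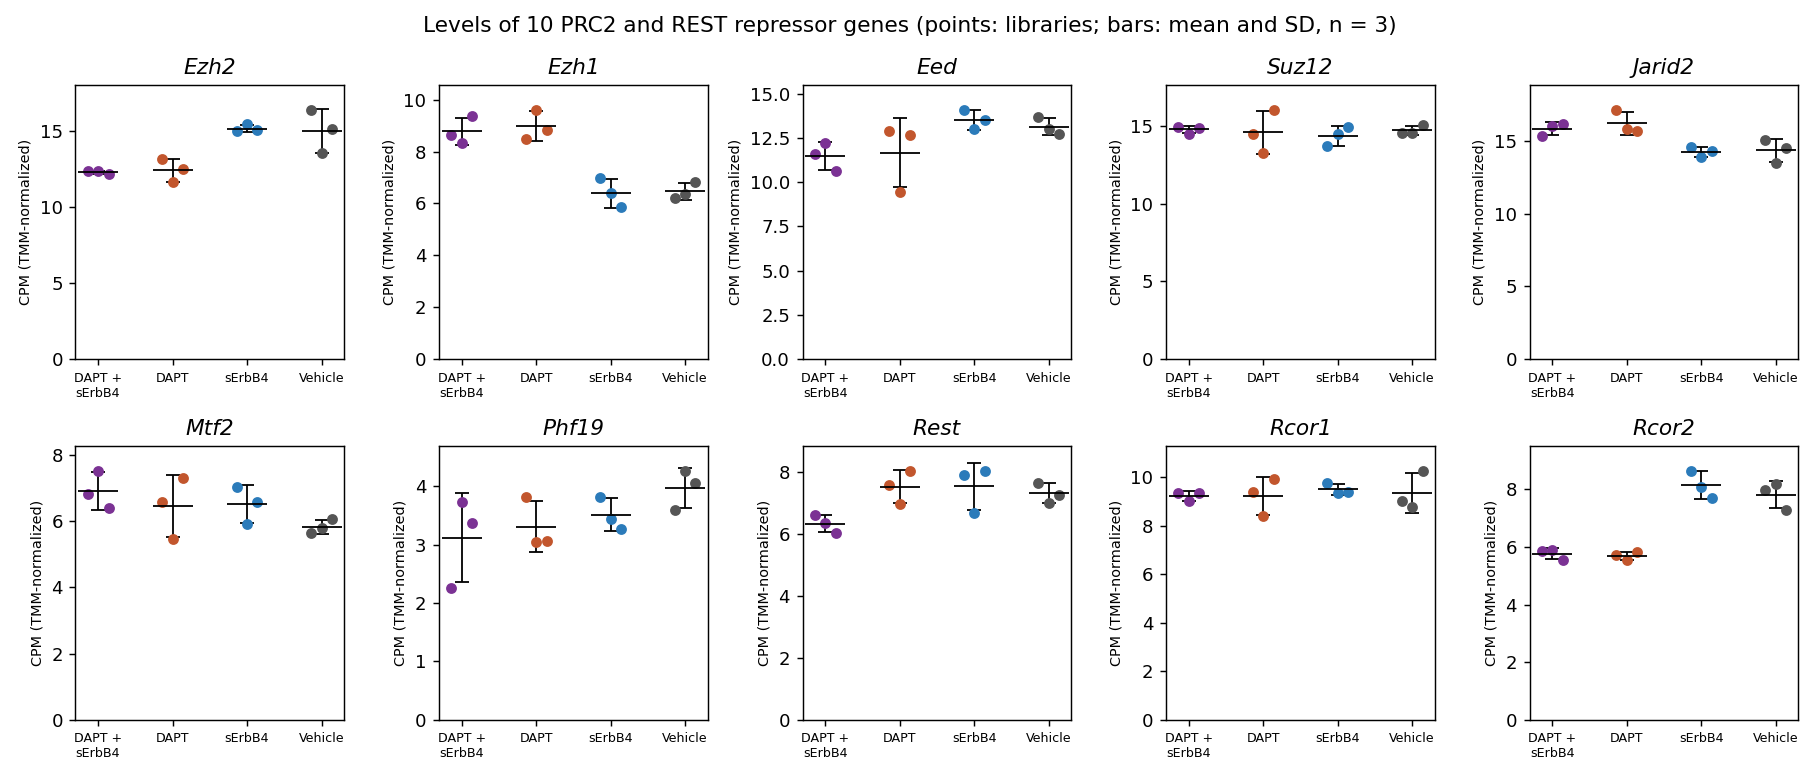
Level of each gene in CPM (linear axis from 0) in the 4 treatment groups. Points are the 3 libraries of a group and bars are mean and SD. The 6 libraries with DAPT lie apart from the 6 without it for Ezh2, Ezh1, Jarid2 and Rcor2. The same count over all genes is not given here, so this separation is not read as particular to them.

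With DAPT the catalytic subunit gene Ezh1 was higher, its alternative Ezh2 and the corepressor gene Rcor2 were lower, and Suz12 and Rcor1 stood near their levels without DAPT. A gene was called at a Benjamini-Hochberg adjusted p under 0.05 over all genes tested and a mean more than 25% higher in the larger group than in the smaller. With DAPT against vehicle, 2 of the 10 genes were called, Ezh1 (higher) and Rcor2 (lower), where 11.6% of all genes were. With DAPT + sErbB4 against sErbB4 the called genes were again Ezh1 (higher) and Rcor2 (lower), beside 11.7% of all genes. These comparisons share no library. By adjusted p alone, 4 of 10 passed in the first (Ezh2, Ezh1, Jarid2 and Rcor2, with 23.7% of all genes) and 3 of 10 in the second (Ezh2, Ezh1 and Rcor2, with 24.5%). The 3 libraries of each side did not overlap for 4 of the 10 genes with DAPT against vehicle (41.1% of all genes) and for 6 of the 10 with DAPT + sErbB4 against sErbB4 (38.7%). These shares of the 10 were not tested against those of all genes, and nothing particular to the 10 is read from them. The median log2 fold change of the 10 genes was -0.01 and -0.10, against 0.01 for all genes in both comparisons.

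In the average of both DAPT comparisons, 2 of 10 were called (13.2% of all genes) and 5 of 10 passed by adjusted p alone (37.8%), with Eed as the fifth. Where all libraries with DAPT are said below to lie apart from all without it, no share of all genes is given. Such a separation only describes the gene named. With vehicle as the shared control, DAPT + sErbB4 gave the same 2 calls, Ezh1 and Rcor2 (15.1% of all genes). With sErbB4 as the shared control, DAPT gave them too (10.1% of all genes).

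**Figure D2:**
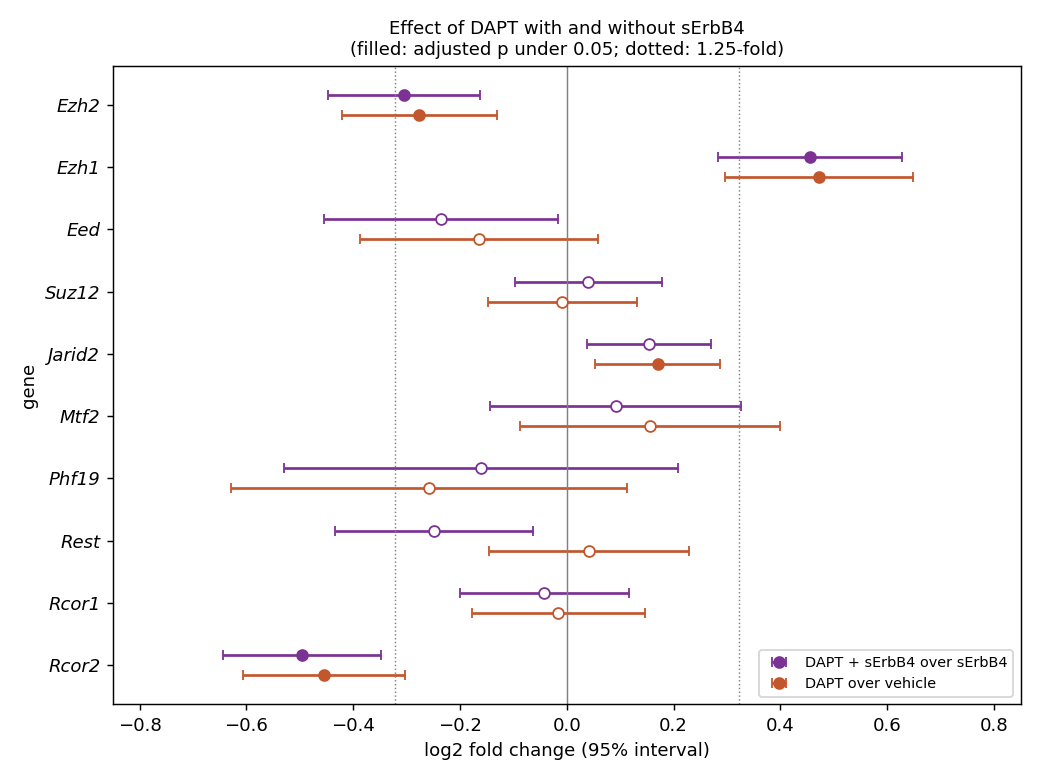
Log2 fold change of each gene with DAPT in the presence of sErbB4 (upper, over sErbB4) and in its absence (lower, over vehicle), with 95% intervals from the model. Filled points passed at adjusted p under 0.05 and dotted lines mark the fold limit. Ezh1 and Rcor2 lie beyond the dotted lines in both comparisons, on opposite sides.

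Ezh2 (chr6:47530139-47595341, minus strand), the catalytic subunit of dividing cells, was lower with DAPT. It stood at 12.3, 12.3 and 12.2 CPM in DAPT + sErbB4 libraries and 13.2, 11.7 and 12.5 CPM in DAPT libraries, against 15.0, 15.4 and 15.0 CPM in sErbB4 libraries and 16.4, 13.5 and 15.1 CPM in vehicle libraries. All 6 libraries with DAPT were below all 6 without it, and the nearest pair was DAPT replicate 1 and vehicle replicate 2. The log2 fold change was -0.31 with DAPT + sErbB4 against sErbB4 (SE 0.07, adjusted p = 0.0053) and -0.28 with DAPT against vehicle (SE 0.07, adjusted p = 0.0105). Both pass the test, and both folds, 1.24 and 1.21, are under the fold limit. Without vehicle replicate 1 the adjusted p of the second was 0.0526. With sErbB4 replicate 1 and vehicle replicate 3 left out, the values were -0.31 (adjusted p = 0.0163) and -0.28 (adjusted p = 0.0335). Order among the groups ran sErbB4, vehicle, DAPT, DAPT + sErbB4. Libraries of neighbouring groups overlapped, except at the step between vehicle and DAPT.

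Markers of dividing cells moved with Ezh2. All 10 of 10 fell with DAPT in the average of both comparisons, with a median log2 fold change of -1.28. Their summed level was 30.0 to 31.5 CPM in DAPT + sErbB4 and 31.2 to 35.7 CPM in DAPT libraries, against 73.3 to 79.6 CPM in sErbB4 and 77.9 to 87.5 CPM in vehicle libraries, and no marker was at 0 throughout. Of the most abundant, Top2a, the topoisomerase of mitotic chromosomes, had a log2 fold change of -1.30 (SE 0.05), and Ccnb1, the mitotic cyclin B1, one of -1.47 (SE 0.08). The part of dividing cells in the Ezh2 difference was not tested.

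Ezh1 (chr11:101191115-101226463, minus strand), the catalytic subunit of cells that no longer divide, rose with DAPT. It stood at 8.65, 8.32 and 9.35 CPM in DAPT + sErbB4 libraries and 8.50, 9.61 and 8.85 CPM in DAPT libraries, against 6.96, 6.38 and 5.85 CPM in sErbB4 libraries and 6.22, 6.35 and 6.82 CPM in vehicle libraries. Every library with DAPT exceeded every library without it. The log2 fold change was 0.46 with DAPT + sErbB4 against sErbB4 (SE 0.08, adjusted p = 0.0014) and 0.47 with DAPT against vehicle (SE 0.08, adjusted p = 0.0014), a fold of 1.37 and 1.39. With sErbB4 replicate 1 and vehicle replicate 3 left out, these values were 0.52 (adjusted p = 0.0017) and 0.51 (adjusted p = 0.0023).

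The ratio of Ezh2 to Ezh1 counts within a library needs no scaling between libraries. It was 1.43, 1.48 and 1.30 in DAPT + sErbB4 libraries and 1.55, 1.21 and 1.41 in DAPT libraries, against 2.16, 2.42 and 2.58 in sErbB4 libraries and 2.63, 2.14 and 2.22 in vehicle libraries. The 2 sets of 6 did not overlap. Because both genes had already been seen to move, the ratio is a description with no test. The summed level of the 4 core genes was 47.0 to 47.5 CPM in DAPT + sErbB4 and 44.0 to 50.03 CPM in DAPT libraries, against 49.3 to 49.7 CPM in sErbB4 and 47.4 to 50.8 CPM in vehicle libraries. It was lower in all DAPT + sErbB4 than in all sErbB4 libraries, while DAPT and vehicle libraries overlapped.

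**Figure D3:**
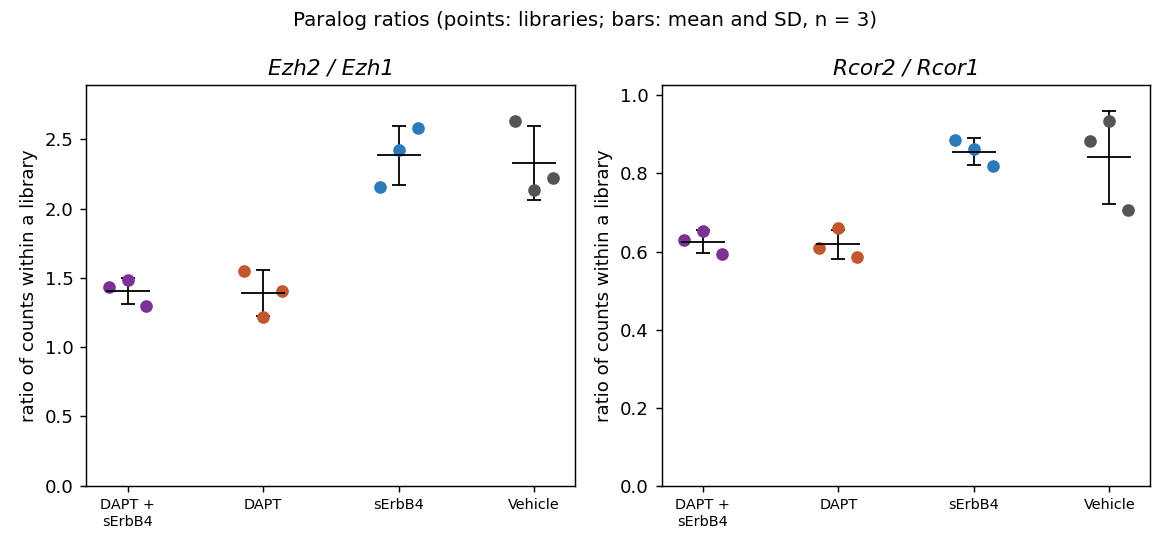
Ratio of Ezh2 to Ezh1 (left) and of Rcor2 to Rcor1 (right) within each library, on linear axes from 0. Points are libraries and bars are mean and SD of 3. For Ezh2 to Ezh1 every library with DAPT lies at or under 1.55 and every library without it at or above 2.14, and for Rcor2 to Rcor1 the same libraries lie at or under 0.659 and at or above 0.706.

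Eed (chr7:89954654-89980983, minus strand), the subunit that reads the methyl mark PRC2 leaves, passed only in the average of both DAPT comparisons, where its log2 fold change was -0.20 (SE 0.07, adjusted p = 0.045). Its level was 11.6, 12.2 and 10.6 CPM in DAPT + sErbB4 libraries and 12.9, 9.43 and 12.7 CPM in DAPT libraries, against 14.1, 13.0 and 13.5 CPM in sErbB4 libraries and 13.7, 13.0 and 12.7 CPM in vehicle libraries. DAPT + sErbB4 lay under sErbB4 in every library, while DAPT and vehicle overlapped. Neither comparison passed by itself (adjusted p = 0.111 and 0.29). The fold of the average is under the fold limit, so Eed was not called. Its log2 fold change lay between -0.23 and -0.14 in 21 alternatives, and its adjusted p was no longer under 0.05 in 13 of them, among them the one without sErbB4 replicate 1 and vehicle replicate 3 (adjusted p = 0.0972).

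Suz12 (chr11:79993106-80034123, plus strand), the scaffold that holds PRC2 together, had the smallest change of the core genes. It stood at 15.0, 14.5 and 14.9 CPM in DAPT + sErbB4 libraries and 14.5, 13.3 and 16.0 CPM in DAPT libraries, against 13.7, 14.5 and 14.9 CPM in sErbB4 libraries and 14.6, 14.5 and 15.1 CPM in vehicle libraries. The groups overlapped throughout. The 95% interval of its average DAPT effect ran from -0.08 to 0.11 on the log2 scale, and the estimate of 0.02 changed sign among the alternatives.

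Jarid2 (chr13:44729474-44921643, plus strand), which helps PRC2 find its sites, was higher with DAPT by a small margin. It stood at 15.3, 16.1 and 16.2 CPM in DAPT + sErbB4 libraries and 17.2, 15.8 and 15.7 CPM in DAPT libraries, against 14.6, 13.9 and 14.3 CPM in sErbB4 libraries and 15.1, 13.5 and 14.6 CPM in vehicle libraries. All 6 libraries with DAPT were above all 6 without it. The average log2 fold change was 0.16 (SE 0.04, adjusted p = 0.0052), under the fold limit. DAPT against vehicle passed by adjusted p alone (0.17, SE 0.05, adjusted p = 0.0392), also under the fold limit, and DAPT + sErbB4 against sErbB4 did not (adjusted p = 0.0535). The log2 fold change with DAPT against vehicle lay between 0.13 and 0.21 in 22 alternatives. Its adjusted p was no longer under 0.05 in 10 of them, and it was 0.0731 without sErbB4 replicate 1 and vehicle replicate 3.

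Mtf2 and Phf19 encode Polycomb-like proteins that bring PRC2 to CpG-rich DNA. Mtf2 (chr5:108065674-108109004, plus strand) stood at 6.83, 7.53 and 6.40 CPM in DAPT + sErbB4 libraries and 6.59, 5.45 and 7.31 CPM in DAPT libraries, against 7.04, 5.90 and 6.58 CPM in sErbB4 libraries and 5.63, 5.79 and 6.05 CPM in vehicle libraries. Phf19 (chr2:34893757-34914026, minus strand) stood at 2.26, 3.73 and 3.38 CPM in DAPT + sErbB4 libraries and 3.82, 3.04 and 3.07 CPM in DAPT libraries, against 3.82, 3.45 and 3.27 CPM in sErbB4 libraries and 3.60, 4.27 and 4.05 CPM in vehicle libraries. For both genes the libraries with and without DAPT were mixed, and neither passed in any comparison. The average DAPT effect had a 95% interval of -0.05 to 0.29 for Mtf2 and of -0.47 to 0.05 for Phf19 on the log2 scale. Mtf2 overlaps Tmed5, a protein-coding gene on the opposite strand. Whether reads were counted by strand is not given in the sources used here, so part of the Mtf2 value may belong to Tmed5.

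Rest (chr5:77265491-77286432, plus strand), the DNA-binding repressor itself, was lowest in DAPT + sErbB4 libraries. It stood at 6.61, 6.37 and 6.04 CPM in DAPT + sErbB4 libraries and 7.60, 6.97 and 8.03 CPM in DAPT libraries, against 7.93, 6.67 and 8.06 CPM in sErbB4 libraries and 7.67, 7.02 and 7.28 CPM in vehicle libraries. The 3 DAPT + sErbB4 libraries were under all 9 others, and the other groups overlapped. The log2 fold change of DAPT + sErbB4 was -0.25 against sErbB4 (SE 0.08, adjusted p = 0.053), -0.25 against DAPT (SE 0.08, adjusted p = 0.41) and -0.21 against vehicle (SE 0.09, adjusted p = 0.092). None passed in the main test. The first did pass with limma (adjusted p = 0.0295) and without sErbB4 replicate 2 (adjusted p = 0.0105). The comparison against vehicle also passed by adjusted p with limma. The comparison against sErbB4 was further from passing, at adjusted p = 0.159, without sErbB4 replicate 1 and vehicle replicate 3.

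DAPT alone gave Rest a log2 fold change of 0.04 against vehicle (SE 0.09, adjusted p = 0.79). The difference between the effect of DAPT with sErbB4 and without it was -0.29 (SE 0.12). Its unadjusted p was 0.0337 and its adjusted p was 1, in a comparison where 565 of 15656 genes (3.61%) had an unadjusted p under 0.05. Depth of 125 to 246 counts a library bounds what could be detected for this gene.

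Rcor1 (chr12:111039351-111115901, plus strand) and Rcor2 (chr19:7267325-7275225, plus strand) encode alternative CoREST scaffolds. Rcor2 fell with DAPT. It stood at 5.87, 5.90 and 5.55 CPM in DAPT + sErbB4 libraries and 5.73, 5.54 and 5.81 CPM in DAPT libraries, against 8.65, 8.07 and 7.69 CPM in sErbB4 libraries and 7.98, 8.20 and 7.28 CPM in vehicle libraries. The gap between the 2 sets of 6, from 5.90 to 7.28 CPM, was wider than the range within the DAPT libraries. The log2 fold change was -0.50 with DAPT + sErbB4 against sErbB4 (SE 0.07, adjusted p = 0.00029) and -0.45 with DAPT against vehicle (SE 0.07, adjusted p = 0.00064), a fold of 1.41 and 1.37. Without sErbB4 replicate 1 and vehicle replicate 3 they were -0.45 (adjusted p = 0.0011) and -0.50 (adjusted p = 0.00072).

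Rcor1 stood at 9.35, 9.01 and 9.35 CPM in DAPT + sErbB4 libraries and 9.39, 8.40 and 9.93 CPM in DAPT libraries, against 9.78, 9.35 and 9.40 CPM in sErbB4 libraries and 9.04, 8.76 and 10.3 CPM in vehicle libraries. DAPT and vehicle libraries overlapped, as did DAPT + sErbB4 and sErbB4 libraries. Its average DAPT effect had a 95% interval of -0.14 to 0.08 on the log2 scale, around an estimate of -0.03 that changed sign among the alternatives. The ratio of Rcor2 to Rcor1 averaged 0.625 ± 0.030 in DAPT + sErbB4 and 0.618 ± 0.038 in DAPT libraries, against 0.855 ± 0.034 in sErbB4 and 0.841 ± 0.119 in vehicle libraries (SD, n = 3 each). Vehicle replicate 3, at 0.706, was the closest to the libraries with DAPT.

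Several markers of radial glia and of oligodendrocyte precursors fell with DAPT, as Rcor2 did, while Ezh1 rose. Of 9 radial glia and neural stem cell markers, 5 were called lower in the average DAPT effect (7.7% of all genes). The other 4 had a positive log2 fold change. The summed level of the 9 was 2764 to 2879 CPM in DAPT + sErbB4 and 2986 to 3143 CPM in DAPT libraries, against 4736 to 5226 CPM in sErbB4 and 5063 to 5537 CPM in vehicle libraries. Such a sum follows its most abundant genes and is not a fall of every marker. The 2 most abundant were Fabp7, a lipid-binding protein of radial glia, with a log2 fold change of -1.89 (SE 0.04), and Vim, the intermediate filament vimentin, with 0.10 (SE 0.04, adjusted p = 0.10). Of 5 oligodendrocyte precursor markers 4 were called lower, and all 5 were lower by adjusted p alone. Olig1 and Olig2, transcription factors of this lineage, had log2 fold changes of -1.34 (SE 0.04) and -1.06 (SE 0.02). The summed level of the 5 was 404 to 419 CPM in DAPT + sErbB4 and 418 to 453 CPM in DAPT libraries, against 876 to 974 CPM in sErbB4 and 950 to 962 CPM in vehicle libraries. Of 8 neuronal markers 2 were called higher, and the 2 most abundant, Tubb3 (a neuronal tubulin) and Slc17a7 (a vesicular glutamate transporter), had log2 fold changes of -0.13 (SE 0.03) and 0.30 (SE 0.04). The part of these cell types in the differences of Rcor2 and Ezh1 was not tested.

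Changes in markers of other cells were fewer or mixed. Of 5 astrocyte markers 1 was called higher and 1 lower, and by adjusted p alone 2 were higher and 2 lower. The 2 most abundant were Gfap (the astrocyte filament) and Slc1a2 (a glutamate transporter). Their log2 fold changes of 0.26 (SE 0.03) and -0.20 (SE 0.04) are under the fold limit, so neither is among those called. The summed astrocyte level was 5750 to 6001 CPM in DAPT + sErbB4 and 6092 to 6482 CPM in DAPT libraries, against 4909 to 5131 CPM in sErbB4 and 5177 to 5884 CPM in vehicle libraries. Microglial markers summed to 14.4 to 19.2 CPM over the 12 libraries, with 1 of 5 called lower. Endothelial markers summed to 3.16 to 4.96 CPM, with 0 of 3 called. Mural and fibroblast markers summed to 51.8 to 77.5 CPM, with 1 of 6 called higher and 3 called lower. No marker of any list was at 0 in all libraries.

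No change of the 10 genes with sErbB4 passed the test, with DAPT or without it. With sErbB4 against vehicle 0 of the 10 were called, where 5 of 15656 genes (0.0319%) were, and 0 of the 10 had an unadjusted p under 0.05 (7.56% of all genes). The largest change was in Phf19, at -0.17 (95% interval -0.54 to 0.20), followed by Mtf2 at 0.16 (-0.09 to 0.40). With DAPT + sErbB4 against DAPT, 0 of the 10 and 0 of all genes were called with edgeR, 9 of all genes with DESeq2 and 0 with limma. An unadjusted p under 0.05 was reached by 1442 genes (9.21%), and among the 10 by Rest alone. Rest was also the only one of the 10 whose libraries did not overlap there, as was so for 19% of all genes. For Ezh2, Ezh1 and Rcor2 the 95% intervals of both sErbB4 effects lay between -0.20 and 0.205 on the log2 scale. Some p-values here are larger than the SE implies, so these intervals may be too narrow. A change as large as that of Ezh1 or Rcor2 with DAPT is outside these intervals. The effect of DAPT did not pass as different with and without sErbB4 for any of the 10, and in that test 1 of all genes (0.00639%) was called.

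**Figure D4:**
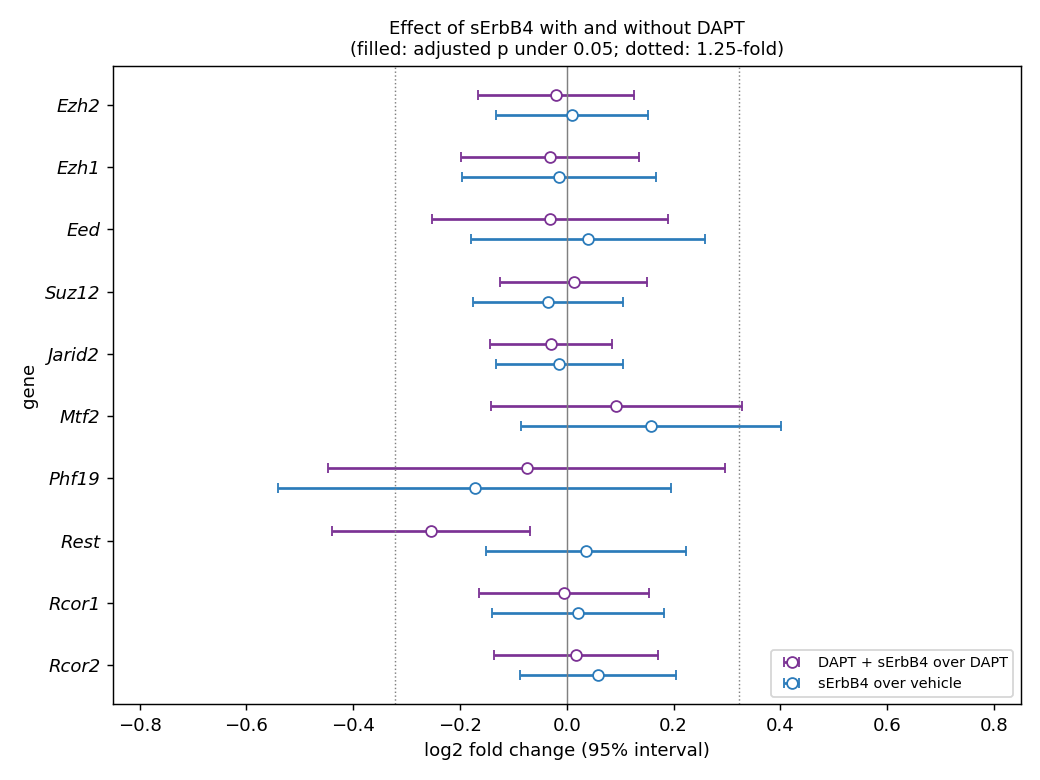
Log2 fold change of each gene with sErbB4 in the presence of DAPT (upper, over DAPT) and in its absence (lower, over vehicle), with 95% intervals from the model. No point is filled, since none passed at adjusted p under 0.05. Only the upper interval of Rest, from -0.44 to -0.07, leaves out 0.

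Among genes that work with the 10, 1 PRC1 gene was called higher with DAPT and 1 lower, and 8 of 28 neuronal genes that REST is known to bind were called higher. The counts are those of the average DAPT effect, in which 5.54% of all genes were called higher and 7.7% lower. Of 8 other PRC2 subunits and cofactors 0 were called, and 1 was higher by adjusted p alone (37.8% of all genes passed in either direction). Their log2 fold changes were positive for 6 of 8, with a median of 0.15 against 0.01 for all genes. With DAPT + sErbB4 against sErbB4, 1 of the 8 was called higher (11.7% of all genes were called in either direction). The 2 most abundant, Rbbp7 and Rbbp4, histone-binding subunits shared with other complexes, had log2 fold changes of -0.02 (SE 0.03) and 0.03 (SE 0.06). Of 20 subunits of PRC1, the complex that binds the mark made by PRC2, 1 was higher and 1 lower. By adjusted p alone 4 of the 20 were higher and 3 lower. Cbx7, a reader of the PRC2 mark, rose by 0.44 (SE 0.06, adjusted p = 0.00014) and Phc2, a polyhomeotic subunit, fell by 0.33 (SE 0.05, adjusted p = 0.00016) on the log2 scale. Neither of the 2 demethylases that remove the PRC2 mark was called. Kdm6b was at -0.04 (SE 0.07), and Kdm6a, at 0.18 (SE 0.06), was higher by adjusted p alone.

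Of 19 REST corepressor partners 0 were called, although 3 were higher and 6 lower by adjusted p alone (37.8% of all genes passed in either direction). The 2 most abundant were Ctbp1, a C-terminal binding corepressor, at -0.10 (SE 0.04, adjusted p = 0.047), and Ehmt2, a histone H3 lysine 9 methyltransferase, at 0.03 (SE 0.03). Of 28 neuronal REST target genes 8 were higher and 0 lower, and 20 were higher and 1 lower by adjusted p alone. Among those called were Scn2a (a neuronal sodium channel, 0.44, SE 0.03), Scg2 (a secretogranin, 0.43, SE 0.04) and Syp (synaptophysin of synaptic vesicles, 0.36, SE 0.02). The median of the 28 was 0.24 against 0.01 for all genes. The 8 general neuronal markers had a median of 0.21, with 2 called higher, and 6 higher and 1 lower by adjusted p alone. Whether the REST targets differ from neuronal genes at large was not tested. The summed level of the 28 summed level was 3419 to 3505 CPM in DAPT + sErbB4 and 3190 to 3269 CPM in DAPT libraries, against 2955 to 3064 CPM in sErbB4 and 2713 to 2844 CPM in vehicle libraries. Rest itself did not pass in this average (log2 fold change -0.10, SE 0.06, adjusted p = 0.21). The median of the 28 was 0.12 with sErbB4 against vehicle and 0.07 with DAPT + sErbB4 against DAPT, and 0 of the 28 were called in either. The neuronal markers had medians of 0.12 and 0.12, with 0 of 8 called in either.

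Of 30 developmental genes that PRC2 keeps silent 10 were in the table and 2 passed the filter, Cdkn2b and Cdkn2a, inhibitors of cell cycle kinases. Their log2 fold changes were 0.11 (SE 0.13) and -0.17 (SE 0.27) in the average DAPT effect, at mean levels of 3.45 and 1.49 CPM over all libraries. The 8 that did not pass the filter averaged from 0.0030 CPM (Gata3) to 0.162 CPM (Gata2), so the sums of the list come mostly from Cdkn2b and Cdkn2a. The 10 together summed to 4.66 to 5.87 CPM in DAPT + sErbB4 and 5.09 to 6.17 CPM in DAPT libraries, against 4.75 to 6.05 CPM in sErbB4 and 4.83 to 6.32 CPM in vehicle libraries.

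**Figure D5:**
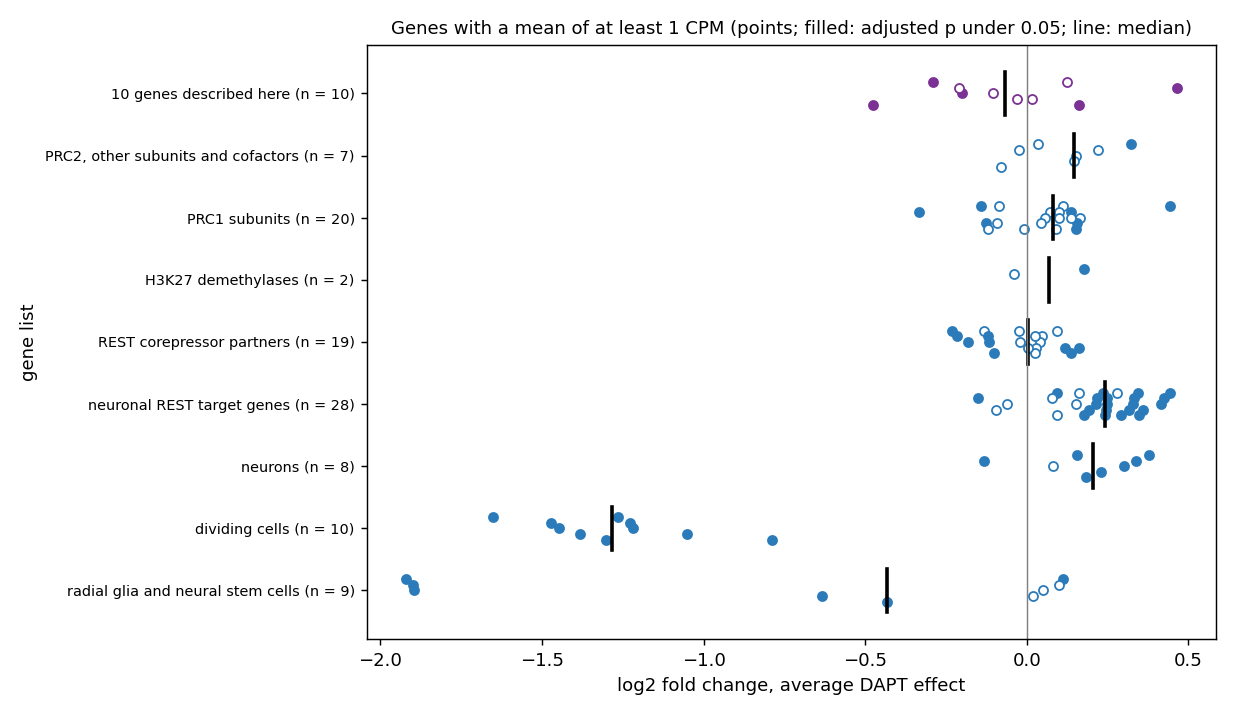
Log2 fold change in the average DAPT effect for the 10 genes (top) and for genes of related lists and marker lists whose level averaged 1 CPM or more. Each point is a gene, filled at adjusted p under 0.05, and black lines are medians of the points shown. Dividing cell markers lie between -1.65 and -0.79, while most neuronal REST target genes lie above 0.

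Over the 12 libraries, genes with a pattern like those of Ezh2, Ezh1 and Rest were ranked by Pearson r of log2 CPM among 10886 genes averaging 5 CPM or more. Since DAPT splits the libraries into 2 clusters, r is also given within the 6 libraries with DAPT and the 6 without, and no p is given. For Ezh2 the nearest was Tcf19, a growth-regulated transcription factor, with r of 0.95 over all 12, 0.83 with DAPT and 0.63 without. Next came Hist1h2an, a histone H2A gene (0.95, 0.51 and 0.82), Metap2, a methionine aminopeptidase (0.94, 0.65 and 0.70), Dok5 (0.94, 0.37 and 0.89) and Dcxr (0.94, 0.77 and 0.65). For Ezh1 the nearest was Gadd45g, a stress-inducible growth arrest gene, with r of 0.99 over all 12, 0.95 with DAPT and 0.83 without. Pnpla7, Cdh9, Inpp5k and Clip1 followed, with r of 0.96 to 0.97 over all 12. Within the libraries with DAPT and without it, r was 0.68 and 0.61 for Pnpla7, 0.21 and 0.80 for Cdh9, 0.23 and 0.70 for Inpp5k, and 0.53 and 0.57 for Clip1.

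For Rest, which does not follow the DAPT split, the nearest was Agfg2, with r of 0.85 over all 12, 0.98 with DAPT and 0.78 without. Sema6a, a semaphorin, followed at 0.83 (0.94 with DAPT and 0.80 without), Paox, a polyamine oxidase, at 0.83 (0.83 and 0.83), Bcl2, an inhibitor of cell death, at 0.82 (0.85 and 0.67), and Dlc1, a tumour suppressor, at 0.81 (0.89 and 0.50). Among the 10 genes themselves, Ezh2 and Ezh1 had r of -0.73 within the 6 libraries with DAPT and -0.08 within the 6 without. Ezh2 and Rcor2 had 0.47 and -0.17, Ezh1 and Rcor2 had -0.89 and 0.22, and Ezh2 and Eed had 0.88 and 0.34. All these r rest on 6 libraries each.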

How the data were processed

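RNA from 12 cultures was sequenced at 75 bp. According to the methods and the submitters' processing notes, the authors used FastQC, MultiQC, Trimmomatic, HISAT2 (mm10), StringTie, IsoformSwitchAnalyzeR and limma, and versions are not given in the sources used here. The authors deposited estimated counts, 1 value per gene and library, with no scaling between libraries. None is whole, and they resemble counts rebuilt from abundances, so their spread need not be that of read counts. Loci with no gene name (1976 of 21312) held 43.4 to 51.8% of counts and were left out. Counts were rounded, filtered with filterByExpr and fitted with edgeR 4.0.16 (R 4.3.3, TMM, quasi-likelihood F test), with a mean per group over all 12 libraries and Benjamini-Hochberg adjustment over 15656 genes. A call needed an adjusted p under 0.05 and a fold past the study's limit, 25% above 1. P-values measure the spread between platings. Alternatives used limma 3.58.1 on log2(CPM + 2), DESeq2 1.42.0, other filters and scaling, and left-out libraries. The model was also run on simulated whole counts, which need not have the spread of the deposited values. Gene spans are from GENCODE (mm10). The rule for named genes took all 10 members, up to 4 called genes of a list with the largest change in the average DAPT effect (or the 2 most abundant if none was called), the 2 most abundant of each marker list, and the 5 genes most like Ezh2, Ezh1 and Rest. One gene this rule took is not reported here. Members and lists were chosen with earlier results of these data known.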

Additional observations from a re-analysis of the deposited data

How the results depend on the processing

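Ezh1 and Rcor2 were called in the same direction in every DAPT comparison under all alternatives run, except that limma called only 1 of the 10 (Rcor2) with DAPT + sErbB4 against vehicle. With adjusted p alone the count was 4 for DAPT against vehicle (3706 of all 15656 genes), 5 for the average (5912) and 4 for DAPT against sErbB4 (3268). Leaving out 1 library at a time gave 2 to 3 of the 10 in the DAPT comparisons, beside 1381 to 2420 of all genes. The extra gene was Ezh2 (without vehicle replicate 2 or DAPT replicate 1) or Rest (without sErbB4 replicate 2). In all comparisons of sErbB4, 0 of the 10 were called under every alternative, and 0 to 14 of all genes were, the most without sErbB4 replicate 1. For the average DAPT effect 2072 genes were called, and 1375 with limma.

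Values near 0 changed sign. With DAPT against vehicle, Suz12 was at 0.0113 with unnamed loci kept, at 0.0049 with Rn45s left out and at 0.0093 with both libraries that stand apart left out, an alternative chosen after seeing the data. Rcor1 was at 0.0036 with unnamed loci kept and at 0.057 with both left out, and in the average DAPT effect at 0.0174. Suz12 was at -0.0016 in that average with limma. Leaving out 1 library at a time gave Suz12 -0.0691 to 0.0527 with DAPT against vehicle and -0.0163 to 0.0466 in the average, Rcor1 -0.0572 to 0.0567 and -0.0515 to 0.0075, and Phf19 -0.31 to 0.0164 with DAPT + sErbB4 against sErbB4.

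Replicate numbers were not shown to pair libraries. Over the 2000 genes with the highest mean, same-number libraries had correlations of their deviations from -0.67 to 0.60 (median 0.03, 8 of 18 above 0.1). With replicate number as a block, 2 of the 10 were again called in each DAPT comparison, beside 1535 to 2314 of all genes. Rest then passed by adjusted p (0.0383) with DAPT + sErbB4 against sErbB4. Members had from 52.3 counts in a library, which limits Phf19 most. No scaling moved the median log2 fold change of all genes by over 0.1.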
